A study of Mus musculus with 6 samples.

Results

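Cxcl9, Cxcl10 and Cxcl11 are the chemokines that share the receptor CXCR3. They were read in mouse dendritic cells from every probe set whose platform annotation gives exactly 1 of these symbols. The probe sets were found by annotation alone, but the 3 genes were chosen with earlier results of these data known. The probe sets found are 4 of the 22690 on the array and stand for 3 of the 12393 genes it names. Cxcl9 and Cxcl10 had 1 probe set each and Cxcl11 had 2.

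The cells were grown from bone marrow of a female CAR-transgenic mouse aged 13 weeks, expanded for 7 days and then kept for 7 days in differentiation medium containing GM-CSF at 250 U/ml. All groups carry this transgene, whose promoter the labels do not state. There were 6 groups with 1 Affymetrix MOE430A array each: untreated cells; cells given TNFa; cells transduced with the control adenovirus AdOVA; AdOVA with TNFa; cells transduced with AdIkBa-SR; and AdIkBa-SR with TNFa. Virus was used at 1500 particles per cell for 2 h, followed by 18 h of culture, and TNFa at 50 ng/ml for the last 4 h. The untreated and TNFa groups received no virus, and no mock transduction is recorded. The labels name 1 mouse and no separate cultures per group, so the differences below are between single arrays.

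As background, CXCR3 is carried by activated T cells and NK cells, and its ligands draw these cells to sites of inflammation. The ligand genes are known targets of interferon signalling and of NF-kB. IkBa holds NF-kB in the cytoplasm until it is degraded, and the name IkBa-SR is commonly used for a super-repressor form that resists degradation. Dendritic cells are a known source of these chemokines after contact with viruses.

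The 250 bases before the annotated start are shown for Cxcl10 and Cxcl9 because the known inputs to these genes, interferon and NF-kB, act through motifs in such regions. The sequences are from RefSeq on GRCm38.p6, both on the minus strand, at chr5:92348890-92349139 for Cxcl10 and chr5:92328080-92328329 for Cxcl9. The table held 2 of the 3 members, without Cxcl11. Capitals mark matches, on either strand, to the interferon-stimulated response element (ISRE, a pair of GAAA blocks with 2 free bases between them), the interferon-gamma activated site (GAS, TTCNNNGAA) or the NF-kB consensus.
Cxcl10: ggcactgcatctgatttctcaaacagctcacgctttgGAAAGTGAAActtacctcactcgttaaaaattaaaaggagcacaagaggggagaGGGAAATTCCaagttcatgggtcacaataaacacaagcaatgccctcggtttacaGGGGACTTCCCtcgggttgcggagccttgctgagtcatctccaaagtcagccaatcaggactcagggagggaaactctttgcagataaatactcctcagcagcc
Cxcl9: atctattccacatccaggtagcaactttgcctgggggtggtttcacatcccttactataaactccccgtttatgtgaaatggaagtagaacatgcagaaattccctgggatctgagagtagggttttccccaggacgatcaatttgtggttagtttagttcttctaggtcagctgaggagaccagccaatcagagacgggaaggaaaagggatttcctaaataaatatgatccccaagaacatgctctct
The Cxcl10 promoter held 1 ISRE match, from 213 to 204 bases before the start. It also held NF-kB consensus matches at 159 to 150 bases and, overlapping each other, at 104 to 95 and at 103 to 94 bases. The Cxcl9 window held none of the 3 motifs in these exact letters. Of 32851 tabled promoters of this length, 2.98% held the ISRE, 7.02% the GAS and 7.25% the NF-kB consensus, and 54 (0.164%) held both the ISRE and the NF-kB consensus. These matches are letters in a sequence, and binding was not measured.

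Signals were comparable across the arrays in their overall distribution, with medians from 74.4 to 88.5 and 57.9% to 63.4% of probe sets above 53.5, which served as the floor and is the 40th percentile of non-control signals. The headers record 1 hybridization time for the untreated, TNFa and AdOVA arrays (round 1) and another for the other 3 arrays (round 2). The AdIkBa-SR array was washed with a different protocol, which records 0 cycles in both washes and a first stain of 420 s; the other arrays record 10 and 4 cycles and 600 s. The AdOVA+TNFa array had a signal of 2601 on the 18S ribosomal RNA 5′ probe, against 120 to 537 on the other arrays. Of the dendritic cell markers, Itgax had signals of 247 and 329 on the 2 AdOVA arrays and 664 to 847 on the other 4, and it fell with AdOVA. Ccr7, the receptor of migrating dendritic cells, rose with AdOVA (signals of 402 and 516 against 195 and 177 without virus) and fell with AdIkBa-SR without TNFa. The other 5 measured markers of the list of 8, H2-Ab1, Cd74, Cd86, Zbtb46 and Batf3, were not called, with Cd74 between 1515 and 3139, and Flt3 was above the floor on the AdOVA array only. The T-cell markers Cd3d, Cd3e, Cd3g and Cd8b1 were under the floor on every array, while Cd5 was above it with TNFa (74.1), AdOVA (100.0) and AdOVA with TNFa (97.6) and below it on the other 3. Of the NK-cell markers, Nkg7 was under the floor throughout, Prf1 was above it on all 6 arrays (60.4 to 103), Gzma was highest on the AdOVA arrays (70.6 and 72.7) and Ncr1 passed the floor with AdOVA alone (84.6). Summed signals ran from 77.6 to 204 for the T-cell list (5 of 6 genes on the array), from 166 to 250 for NK cells, from 11754 to 17215 for macrophages and from 7587 to 20173 for granulocytes. The part of these cells, of the wash protocol and of the round in the results below was not tested. In such bulk samples, fewer cells of a type and less RNA per cell cannot be told apart.

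Cxcl10, a chemokine that attracts activated T cells, was above the floor on all 6 arrays. Its signal was 314 in untreated cells, 330 with TNFa, 7909 with AdOVA, 7073 when TNFa was added to AdOVA, 774 in AdIkBa-SR cells and 739 in AdIkBa-SR cells given TNFa. The arrays fell into 3 levels by virus: both AdOVA arrays were high, both AdIkBa-SR arrays intermediate and both arrays without virus low. Adding TNFa left each level nearly where it was. In descending order, the log2 gaps between neighbouring arrays were 0.16, 3.19, 0.07, 1.16 and 0.07. Neighbours within a virus state were closer than 0.71, the 95% interval of a difference between single arrays in the fit across all probe sets. Neighbours of different virus states were further apart than it. The interval is not adjusted for the number of probe sets, and the TNFa gaps without virus and with AdOVA enter its spread. It is therefore no test of the levels. The difference between AdIkBa-SR and no virus was not called (limma adjusted p = 0.82 without and 0.237 with TNFa). The arrays of these virus states are also of different rounds.

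Cxcl11, which binds CXCR3 too, had the same order of arrays on its brighter probe set. That signal was 94.0 in untreated cells, 95.7 with TNFa, 1138 with AdOVA, 928 when TNFa was added to AdOVA, 168 in AdIkBa-SR cells and 159 in AdIkBa-SR cells given TNFa. The AdOVA arrays stood well above the rest. The log2 gaps down the order were 0.29, 2.46, 0.09, 0.73 and 0.03. Only the gap below the AdOVA arrays exceeded the 95% interval of 0.84, which has the same limits as that of Cxcl10. RefSeq lists Cxcl11 as a transcribed pseudogene in its reference mouse assembly. These probe sets report a transcript, and whether these cells make the protein was not measured. The dimmer Cxcl11 probe set was above the floor on the 2 AdOVA arrays alone, at 79.0 without and 62.4 with TNFa, and was between 4.15 and 11.8 on the other 4.

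Cxcl9, known as a chemokine induced by interferon gamma, was at the limit of measurement. Its signal was 25.7 in untreated cells, 8.55 with TNFa, 70.4 with AdOVA, 98.2 when TNFa was added to AdOVA, 34.1 in AdIkBa-SR cells and 5.95 in AdIkBa-SR cells given TNFa. Only the 2 AdOVA arrays were above the floor, and the values under it have no order. All 4 probe sets passed the filter of 2 arrays above the floor, but Cxcl9 and the dimmer Cxcl11 probe set passed it only through the AdOVA arrays.

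**Figure D1:**
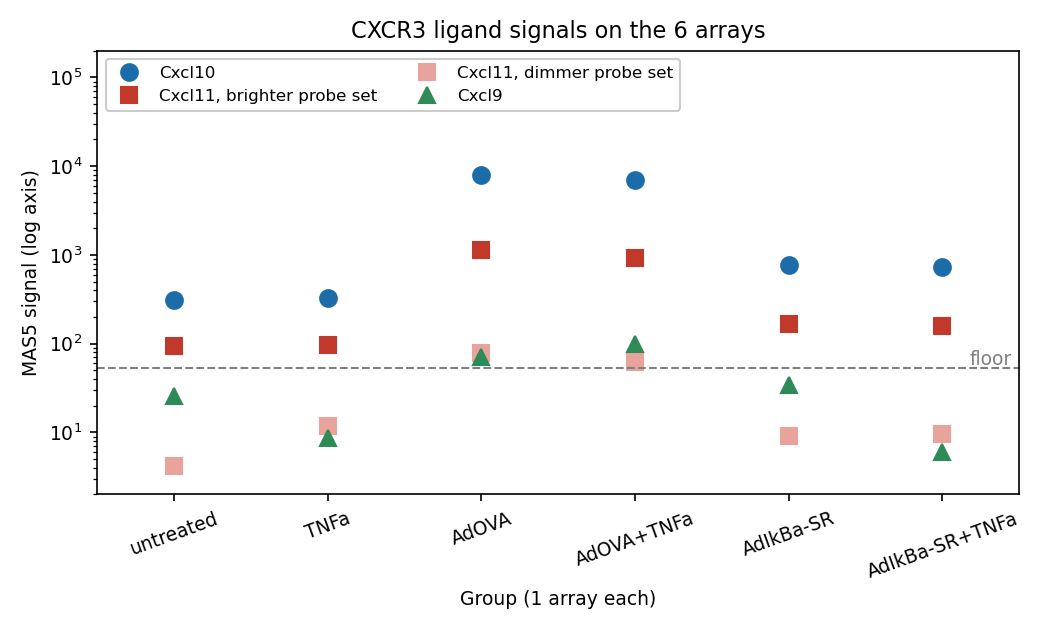
MAS5 signal of the 4 CXCR3 ligand probe sets (log axis) in the 6 groups, 1 array each, with the floor of 53.5 as a dashed line. Cxcl10 reaches 7909 and 7073 on the AdOVA arrays, against 314 to 774 on the others, and Cxcl9 passes the floor on the AdOVA arrays only.

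The first comparison asks what the control virus did. Cxcl10 was 25.2-fold higher with AdOVA than in untreated cells and 21.4-fold higher with AdOVA and TNFa than with TNFa alone, the largest rise among 14906 measured probe sets in each pair once signals under the floor were set to it; folds of probe sets under the floor without virus are bounds, so their true place is not known. Both it and Cxcl11 were at least 2-fold higher in both pairs, as were 1.91% of measured probe sets. Cxcl11 was 12.1-fold and 9.70-fold higher in the same pairs. For Cxcl9 the floor gave only bounds: at least 1.32-fold higher without TNFa, and with it at least 1.84-fold. Those of the dimmer Cxcl11 probe set were 1.48-fold and 1.17-fold. The AdOVA and untreated arrays are both of round 1, and the AdOVA+TNFa and TNFa arrays are of different rounds.

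In the limma fit of all 6 arrays, 2 of the 3 genes rose with AdOVA. Over all measured probe sets 600 rose (4.03%) and 575 fell (3.86%) at an adjusted p under 0.05. Cxcl10 rose by 4.54 on the log2 scale (SE 0.24, limma adjusted p = 2.3e-09) and Cxcl11 by 3.44 (SE 0.28, limma adjusted p = 3.6e-07). Cxcl9 differed by 0.64 (SE 0.23, limma adjusted p = 0.102), which missed the threshold, as did the dimmer Cxcl11 probe set at 0.39 (limma adjusted p = 0.292). The fit has 1 residual degree of freedom. A probe set's own spread is how far its TNFa response in AdOVA cells departed from that in cells lacking virus. The standard errors and p-values draw mostly on the spread over all probe sets, which enters with 17.4 prior degrees of freedom. Under 22 alternative settings the size ran from 4.38 to 4.63 for Cxcl10 and from 1.92, where both probe sets were averaged, to 3.57 for Cxcl11. The call of Cxcl10 was lost in 5 of them, with adjusted p up to 0.46, and that of Cxcl11 in 7, including for both genes the fit with the round as a block and the fits without either AdOVA array.

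The second comparison asks what changed when the virus carried IkBa-SR in place of the control insert. It uses the same AdOVA arrays as the first, so the 2 are not independent. Cxcl10 was 10.2-fold lower with AdIkBa-SR than with AdOVA, and 9.57-fold lower when both were given TNFa. Cxcl11 was 6.75-fold and 5.85-fold lower. Both genes were at least 2-fold lower in both pairs, as were 1.65% of measured probe sets. The bounds for Cxcl9 were at least 1.32-fold lower without TNFa and 1.84-fold with it. The 2 arrays of the pair with TNFa are both of round 2 and share a wash protocol, while the pair without TNFa differs in both.

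By the limma fit, 2 of the 3 genes fell both without and with TNFa. Without TNFa, 109 of all measured probe sets fell (0.731%) and 65 rose (0.436%); with TNFa, 248 fell (1.66%) and 350 rose (2.35%). Cxcl10 fell by 3.29 (SE 0.32, limma adjusted p = 5.6e-05) without and by 3.32 (SE 0.32, limma adjusted p = 2.8e-05) with TNFa. The fitted differences of Cxcl11 were -2.68 (SE 0.37, limma adjusted p = 9.0e-04) and -2.63 (SE 0.37, limma adjusted p = 7.8e-04). For Cxcl9 the differences were -0.52 and -0.76 (limma adjusted p = 0.481 and 0.193). Of 22 alternative settings, 10 ended the call of each gene without TNFa, and with TNFa 8 ended that of Cxcl10 and 9 that of Cxcl11. They include equal array medians as planned (Cxcl10 -3.11, limma adjusted p = 0.18 without and 0.12 with TNFa), while the direction held in all.

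**Figure D2:**
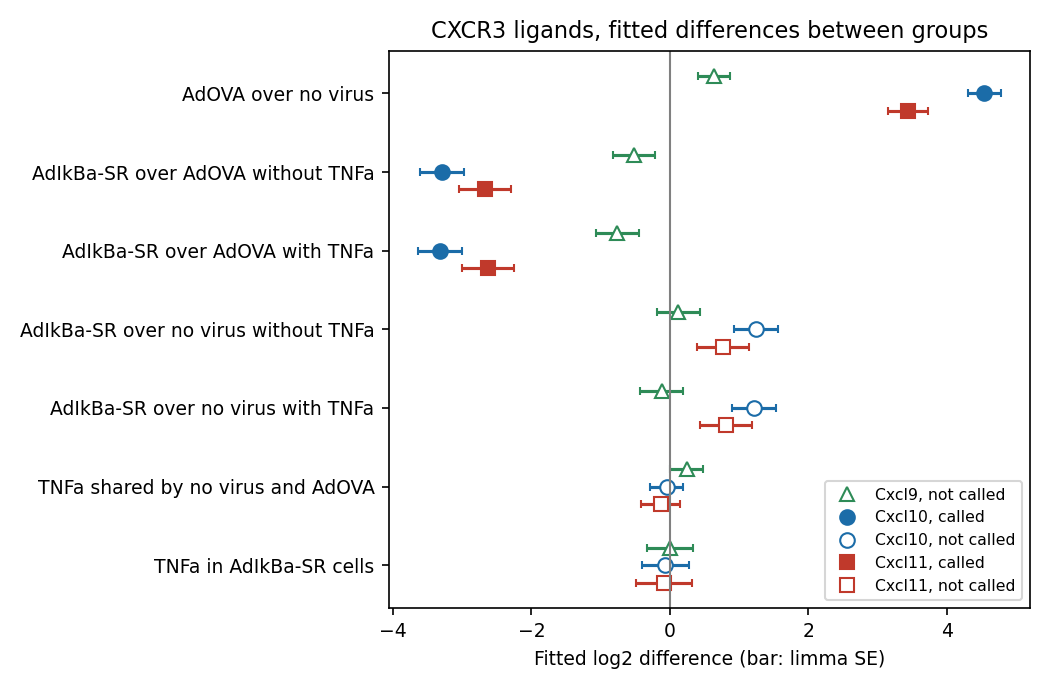
Fitted log2 differences of the CXCR3 ligand probe sets in 7 contrasts, with limma standard errors as bars. Cxcl10 sits at 4.54 for AdOVA over no virus and at -3.29 and -3.32 for AdIkBa-SR over AdOVA, and near 0 in the TNFa contrasts.

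**Figure D3:**
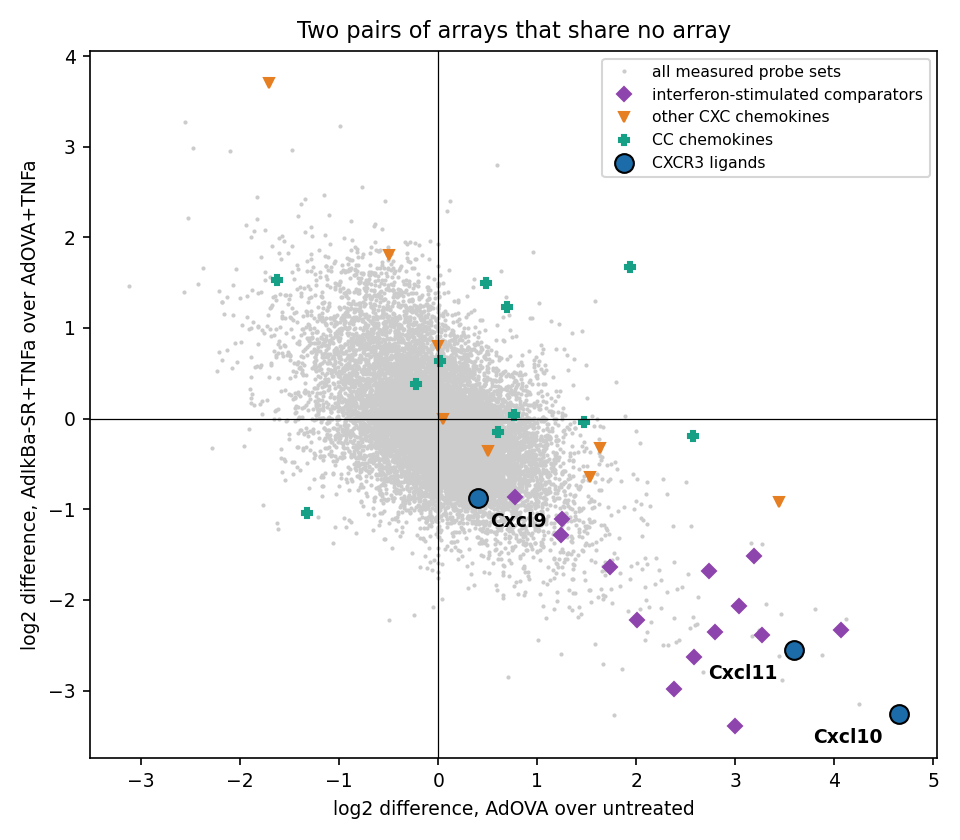
Log2 differences of 14906 measured probe sets in a pair from round 1 (AdOVA over untreated, horizontal) and a pair from round 2 (AdIkBa-SR+TNFa over AdOVA+TNFa, vertical), which share no array. Cxcl10 and Cxcl11 lie far to the right and far down, at 4.65 and -3.26 and at 3.60 and -2.55.

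With AdIkBa-SR, the signals of Cxcl10 and of the brighter Cxcl11 probe set lay above those without virus, though neither difference was called. Cxcl9 and the dimmer Cxcl11 probe set were under the floor on all 4 of these arrays. Cxcl10 was 2.46-fold higher than in untreated cells and 2.24-fold higher than with TNFa alone, and Cxcl11 1.79-fold and 1.66-fold higher. Cxcl10 was thus at least 2-fold higher in both pairs, as were 0.134% of measured probe sets, and Cxcl11 in neither. In both pairs the array without virus is of round 1 and the AdIkBa-SR array of round 2. Virus state and round cannot be told apart here, and the pair without TNFa also differs in wash protocol. In the limma fit the difference for Cxcl10 was 1.24 (SE 0.32, limma adjusted p = 0.82) without and 1.22 (SE 0.32, limma adjusted p = 0.237) with TNFa. For Cxcl11 it was 0.76 and 0.81 (SE 0.37, limma adjusted p = 1.00 and 0.508). Over the whole array 2 probe sets rose (0.0134%) without TNFa and 0 fell; with it 11 rose (0.0738%) and 1 fell (0.00671%), while 357 and 1455 had an unadjusted p under 0.05.

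Expressed as a share of the AdOVA gain, 6.06% of the Cxcl10 signal gain was present with AdIkBa-SR in each TNFa state, and 7.14% and 7.56% of the Cxcl11 gain. On the log2 scale the shares were 27.9% and 26.3% for Cxcl10 and 23.4% and 22.2% for Cxcl11. The neutrophil-attracting Cxcl1 had 41.8% and 71.3% of its log2 gain with AdIkBa-SR, and Cxcl2 had 46.3% and 73.2%. Among CC chemokines Ccl4 had 42.9% and 88.7%, Ccl3 53.4% and 94.7%, and the monocyte attractant Ccl7 138.8% and 351.7%. The interferon-stimulated comparators, of which 13 could be read, ranged from 6.64% to 46.3% (median 36.3%) without TNFa and from -36.8% to 49.7% (median 15.6%) with it. The ligands thus had smaller shares than the 5 other risen chemokines and lay inside the range of the interferon-stimulated genes. Without TNFa, only Gbp2 (6.64%) of the 13 had a smaller share than either ligand, and with TNFa 7 of the 13 had. With TNFa, the gain behind the share was small for Ccl7 (437 without and 694 with AdOVA) and Ccl3 (3003 and 5013). For Cxcl10 it was large (330 and 7073). A share of a small gain is unstable. These shares rest on the same AdOVA arrays, and the difference between genes was not tested.

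**Figure D4:**
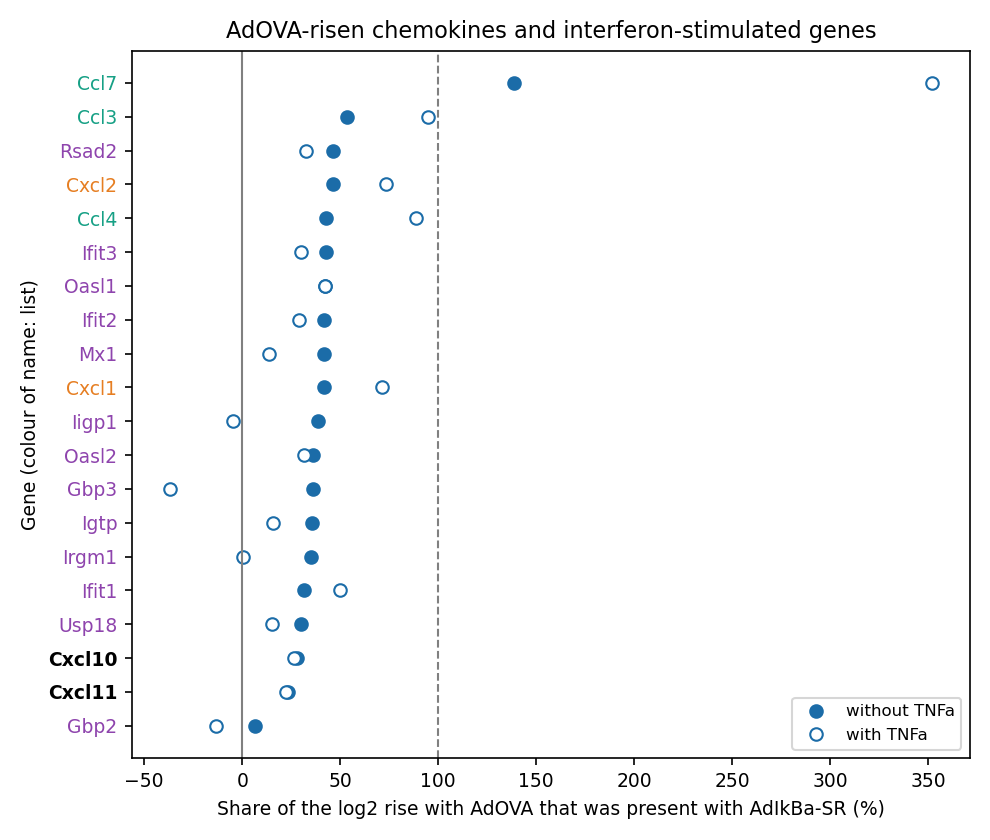
Share of the log2 rise with AdOVA that was present with AdIkBa-SR (%), without and with TNFa, for chemokines and interferon-stimulated genes that rose with AdOVA, 1 array per group. Cxcl10 and Cxcl11 lie between 22.2% and 27.9%, left of Cxcl1, Cxcl2, Ccl3, Ccl4 and Ccl7.

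The third comparison asks what TNFa did. None of the 3 genes was called in any TNFa contrast by limma. Cxcl10 was 1.05-fold higher with TNFa in cells without virus, 1.12-fold lower with AdOVA and 1.05-fold lower with AdIkBa-SR. Cxcl11 was 1.02-fold higher, 1.23-fold lower and 1.06-fold lower in the same order. Only the pair without virus shares both round and wash protocol. The AdOVA array is of round 1 and the AdOVA+TNFa array of round 2, and this pair enters the shared response below. The AdIkBa-SR pair is of round 2 but differs in wash protocol. The shared TNFa response was -0.04 (SE 0.24, limma adjusted p = 0.968) for Cxcl10, -0.13 (SE 0.28, limma adjusted p = 0.906) for Cxcl11 and 0.24 (SE 0.23, limma adjusted p = 0.766) for Cxcl9. Only 4 probe sets on the array rose (0.0268%) and 0 fell (1653 had an unadjusted p under 0.05), and in AdIkBa-SR cells 0 were called, with 760 at an unadjusted p under 0.05. A missed threshold at this array number does not show that TNFa has no effect on these genes.

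The receptor gene Cxcr3 had signals of 80.1, 87.1, 119, 151, 94.8 and 85.6 in the order untreated, TNFa, AdOVA, AdOVA and TNFa, AdIkBa-SR, AdIkBa-SR and TNFa. The AdOVA arrays were highest, but the difference of 0.69 was not called (limma adjusted p = 0.195). Dpp4, the protease that trims these ligands, was under the floor on every array.

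Of 18 interferon signalling genes, 16 were measured; 3 rose with AdOVA and 0 fell, where 4.03% of all probe sets rose and 3.86% fell. The median difference was 0.35 against 0.06 over all probe sets, and in 10 of 22 settings none of the list was called. Ifnb1, which encodes interferon beta, had signals of 62.4, 46.6, 260, 153, 82.1 and 62.5 in the same order and rose by 1.79 (limma adjusted p = 0.0016). Its signal with TNFa alone was under the floor, so this rise is in part a bound. Stat2, a transducer of the type I interferon receptor, rose by 1.71 (limma adjusted p = 4.2e-04), and the transcription factor Irf1 by 1.17 (limma adjusted p = 0.00495). With AdIkBa-SR against AdOVA, 0 of the 16 were called without TNFa (0.731% of all probe sets fell; median -0.31 against -0.07). With TNFa, Jak2, Stat2 and Irf1 fell (1.66% of all fell; median -0.36 against -0.12). In 15 of 22 settings none of the list was called in this comparison with TNFa. Ifnb1 differed in these comparisons by -1.53 without and -1.43 with TNFa (limma adjusted p = 0.081 and 0.060) and was not called. Interferon gamma itself, Ifng, was under the floor on every array.

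Of 13 NF-kB genes, 11 were measured and 3 rose with AdOVA: Nfkbib, Nfkbiz and Tnfaip3. Over all probe sets 4.03% rose, and the list's median was 0.63 against 0.06. In 10 of 22 settings none of the list was called. Tnfaip3, an NF-kB-induced inhibitor of the pathway, had signals of 162, 189, 512, 1462, 110 and 224 in the same order. It rose by 2.31 with AdOVA (limma adjusted p = 1.2e-04). With AdIkBa-SR it fell, with differences of -2.54 without (limma adjusted p = 0.003) and -2.38 with TNFa (limma adjusted p = 0.0039). Tnfaip3 was the only member of the list called there, where 0.731% of all probe sets fell without and 1.66% with TNFa. None of the list was called there in 11 of 22 settings without TNFa and in 11 with it. Whether the probe sets of Nfkbia, which encodes IkBa, detect the virus's insert was not tested. The signals of the brightest of its 4 probe sets were 10118 and 8571 on the AdIkBa-SR arrays against 9729 to 16336 on the others.

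Genes induced by interferon were read beside the ligands for comparison. All 14 measured genes rose with AdOVA, by 1.02 to 4.05, where 4.03% of all probe sets rose. Their median was 2.53 against 0.06 over all probe sets, and in 5 of 22 settings none of the list was called. With AdIkBa-SR, 8 fell without TNFa, where 0.731% of all probe sets fell (median -1.54 against -0.065). With TNFa 12 fell, where 1.66% of all fell (median -2.14 against -0.12). None of the list was called in 10 of 22 settings without TNFa and in 8 with it. The fitted rise was 4.54 for Cxcl10, 4.05 for Oasl1 and 3.44 for Cxcl11. That of Mx2, 3.20, is a bound, since its signals without virus (24.4 and 15.3) were under the floor, so it has no place in this order. Without TNFa the fitted falls of the 14 reached -2.34, for Gbp2, against -3.29 for Cxcl10 and -2.68 for Cxcl11. With TNFa they reached -3.29, for Mx2 (SE 0.44), against -3.32 for Cxcl10 (SE 0.32), a gap smaller than either standard error. The floored Mx2 values without virus enter this fitted fall through the shared TNFa response. Between the AdOVA+TNFa and AdIkBa-SR+TNFa arrays themselves, Mx2 went from 565 to 53.9, a larger fold than for Cxcl10 (7073 to 739). Differences between genes were not tested.

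Of the other CXC chemokines 8 of 11 were measured, and of the CC chemokines 11 of 17. Cxcl1 rose with AdOVA by 3.33 (limma adjusted p = 1.0e-07), and Cxcl2, Ccl3, Ccl4 and Ccl7 rose too. The platelet chemokine Ppbp and Ccl17, which attracts Th2 cells, fell. Over all probe sets 4.03% rose and 3.86% fell. With AdIkBa-SR against AdOVA and no TNFa, Cxcl1 was the only measured chemokine of these lists that fell. Ppbp rose there by 3.21 (limma adjusted p = 4.5e-04). With TNFa no chemokine of these lists fell, and Ppbp, Pf4, Ccl7, Ccl12 and Ccl17 rose. The Ccl12 signal with AdOVA and TNFa (29.0) was under the floor, so its rise is in part a bound. Over all probe sets 0.731% fell and 0.436% rose without TNFa, and 1.66% fell and 2.35% rose with it. With AdOVA, none of the other CXC chemokines was called in 7 of 22 settings and no CC chemokine in 9. For AdIkBa-SR over AdOVA these counts were 10 and 19 without TNFa, and 9 and 15 with it.

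The genes whose patterns over the 6 arrays were closest to Cxcl10, by root-mean-square distance of centred log2 signals among 8926 measured genes, were Cmpk2 (0.23), Oasl1 (0.41), Cxcl11 (0.45), Il6 (0.54) and Mx2 (0.61). For Cxcl11 they were Cmpk2 (0.31), Mx2 (0.33), Ifit2 (0.34), Ifit3 (0.35) and Il6 (0.36), with Cxcl10 at place 11. Cmpk2 had signals of 212, 210, 4036, 3333, 558 and 377 in the order used above, the same 3 levels by virus as Cxcl10. Cxcl9 was at place 821 from Cxcl10 and 818 from Cxcl11, and with 4 of its 6 values at the floor its own nearest genes (Zc3h3, Gucy2c, Cmah, Fap and Slc4a4) were other genes just above the floor on the AdOVA arrays. These distances are descriptions over 6 arrays. In the same promoter window, Ifit3 held an ISRE match, Oasl1, Il6 and 1 of 2 Ifit2 promoters an NF-kB match, 1 of 2 Ifit2 promoters a GAS match, and Cmpk2 none of the 3 motifs. Mx2 was not in the promoter table.

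The 3 ligand genes lie together on chromosome 5, with Art3 between Cxcl9 and Cxcl10. Of the nearest 5 tabled genes on each side, the long noncoding RNA U90926 was the only one that rose with AdOVA. In that order it had signals of 3616, 2380, 12087, 6009, 3188 and 2873. It rose by 1.54 (limma adjusted p = 0.0028) and fell with AdIkBa-SR without TNFa (limma adjusted p = 0.0236) but was not called with TNFa (limma adjusted p = 0.096). Naaa, a lysosomal amidase, fell with AdOVA by 0.89 (limma adjusted p = 0.0286). Art3, Ppef2 and Stbd1 were not measured, and Uso1, Sdad1, Nup54, Scarb2, Shroom3 and Septin11 were not called with AdOVA.

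**Figure D5:**
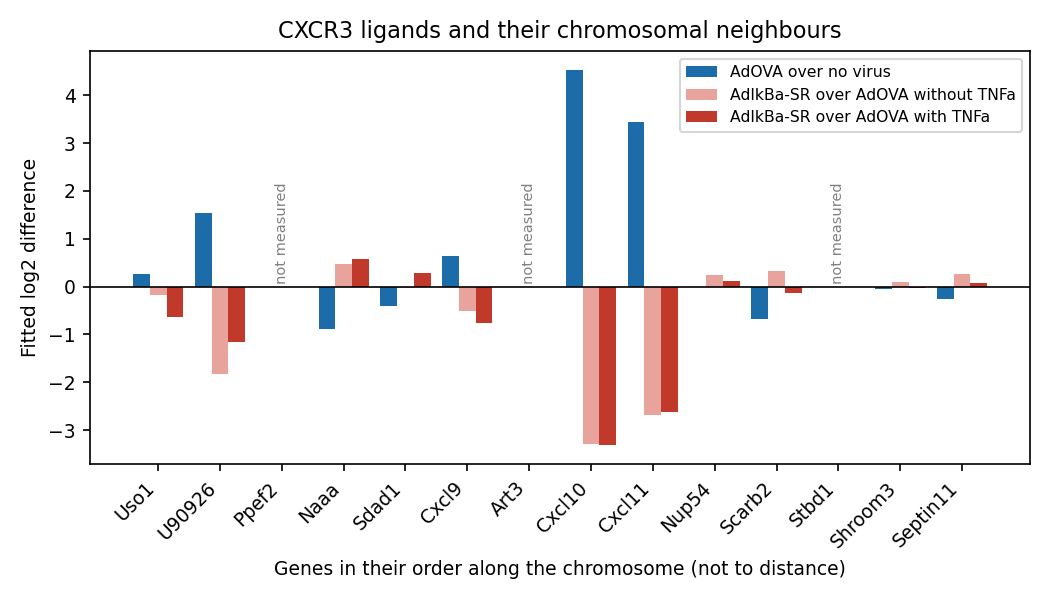
Fitted log2 differences of the CXCR3 ligands and their neighbours in gene order on chromosome 5, not to distance, for AdOVA over no virus and AdIkBa-SR over AdOVA. Cxcl10 and Cxcl11 have the tallest bars, at 4.54 and 3.44 for AdOVA, and U90926 is the neighbour nearest to them in size, at 1.54.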

How the data were processed

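Total RNA (8 ug) of each sample was hybridized to 1 Affymetrix MOE430A array. The authors deposited 1 linear microarray intensity per probe set, computed by MAS5, as listed per the submitters' processing notes, with version and settings not given in the sources used here. Groups came from the sample titles. Of 22690 probe sets, 64 were controls; of the others, 20380 carry 1 gene symbol, 691 several and 1555 none. Signals under a floor of 53.5 were set to it and log2 taken; folds against a floored signal are bounds. Probe sets above the floor on at least 2 arrays (14906) were fitted with limma 3.58.1 (lmFit, eBayes with trend; R 4.3.3) with 5 coefficients: 3 virus states, 1 TNFa response common to AdOVA cells and cells lacking virus, and another in AdIkBa-SR cells. The AdIkBa-SR arrays are thus assumed to vary like the others. Calls had a Benjamini-Hochberg adjusted p under 0.05 over all 14906. With 1 array per group, p-values measure only the spread between these arrays, which may be technical. Each gene's value is that of its brightest single-symbol probe set. The members and gene lists were chosen with earlier results of these data known. The script was checked on simulated data. Named genes were all members, the listed genes, the 5 most alike and the 5 neighbours on each side. Alternatives changed the floor, filter, scaling, probe set rule, trend or model, or left out an array. MAS5 signals near the floor are noisy, and the floor compresses differences of dim genes.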

Additional observations from a re-analysis of the deposited data

How the results depend on the processing

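No fitted difference of a ligand that was called changed direction in any of 22 alternatives, but the calls often ended. With AdOVA, the 2 called genes became 0 with the floor at the 55th percentile, 0 with no filter, 1 with the mean over all probe sets of a gene and 0 with the round as a block; additive fits leaving out an array gave 0 to 2 (0 without AdOVA or without AdOVA+TNFa, 1 without untreated). For AdIkBa-SR over AdOVA, without and with TNFa, the 2 became 0 with the 55th percentile floor, no filter, equal medians, quantile normalization, the gene mean and the round as a block, and 0 to 2 with an array left out (0 without AdOVA or without AdOVA+TNFa). The planned floors and scalings kept the probe sets of the fit as reported. After these had lost calls, 4 versions that applied the filter anew to the refloored or rescaled signals were added, with only probe sets above the floor on all 6 arrays and robust eBayes also chosen after seeing the data. Among the 4, the 55th percentile floor and equal medians gave 2 in each of these 3 comparisons, whereas the 25th percentile floor gave 0 without and 1 with TNFa, and quantile normalization 0 without and 2 with TNFa. The filter thus changes these calls under a new floor or scaling, and the added versions do not replace the planned ones. Probe sets tied at the floor have no residual: there were 14 in the fit as reported (prior degrees of freedom 17.4), 2619 at the 55th percentile floor (0.81) and 6533 with no filter (0.82). Cxcl9 passed the threshold with AdOVA under the 25th percentile floor (1.72, limma adjusted p = 0.033; 0.068 and not called with the filter applied anew) and with log2(signal + 16) (1.64, limma adjusted p = 0.041), having entered the fit only through the AdOVA arrays. Over the whole array, the 600 risen and 575 fallen with AdOVA became 43 and 15 with equal medians and 14 and 0 with quantile normalization. Under equal medians the median over all probe sets moved from 0.07 to -0.09 in the TNFa-treated AdOVA pair, and from -0.12 to 0.05 where TNFa-treated AdIkBa-SR was set against it. List counts moved likewise: interferon-stimulated genes risen with AdOVA ranged from 0 to 14, interferon signalling genes from 0 to 3 and NF-kB genes from 0 to 4. The other 4 comparisons of the ligands had 0 called in every setting. No paired analysis was possible because each group has 1 array, and the replicate number is only a name.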

Other observations

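The Cxcl9 and dimmer Cxcl11 probe sets had signals below the floor that the report does not rank. Taken as deposited, Cxcl9 differed by 1.45 on the log2 scale between AdOVA and untreated and by 3.52 between AdOVA+TNFa and TNFa, with both denominators below the floor of 53.5.

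Of the 600 probe sets that rose with AdOVA, 98 fell with AdIkBa-SR against AdOVA without TNFa and 194 with TNFa. The AdOVA arrays are in both comparisons, so a high AdOVA signal enters each of them.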
